A study of Danio rerio with 14 samples.

Results

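The hearts examined were uninjured zebrafish hearts collected 7 months after tamoxifen (7 mpt), profiled by bulk RNA-seq as 4 *il11a*OE and 4 control libraries, 8 of the 14 libraries of the series. All libraries of that time point were taken by their titles. The *il11a*OE fish carried actb2:loxp-BFP-stop-loxp-il11a and cmlc2:creER, in which tamoxifen activates Cre recombinase in cardiomyocytes, the recombinase removes a stop cassette, and the ubiquitous *actb2* promoter then drives an *il11a* cDNA. The controls were littermates with actb2:loxp-BFP-stop-loxp-il11a and no cmlc2:creER, so that both groups carried this transgene and both received 5 µM tamoxifen for 24 h. The study used fish of the outbred Ekkwill or AB strains and gave tamoxifen to adults between 6 months and 1 year old by its methods. Hearts were pooled before RNA isolation. The number of hearts per pool is not given in the sources used here. The descriptions of the libraries carry a letter, F in replicates 1 and 2 and M in replicates 3 and 4 of each group, which the sources do not define. The methods speak of 3 pools per group, while the labels give 4. Recombination is limited to cells in which *cmlc2* drives Cre, while bulk RNA reads all cells of the tissue sampled.

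Interleukin 11 is a cytokine of the IL-6 family. It binds its own receptor, which pairs with the shared signaling chain gp130 (*il6st*), and JAK kinases then phosphorylate STAT3, which switches on target genes such as *socs3b*, a feedback inhibitor. The same receptor complex also feeds the ERK cascade. In fish hearts the *il11* receptor acts in regeneration, and in mammals interleukin 11 is known for its part in fibrosis, the build-up of collagen by activated fibroblasts. The comparison asks how the transcriptome of the sampled heart tissue differs after months of exposure.

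Each library held 73275884 to 130058630 counts on genes in *il11a*OE and 87358547 to 105489597 in control, with each mate of a read pair counted. A smaller share of counts fell on the 10 most abundant genes in *il11a*OE (19.9% to 23.9%) than in control (29.8% to 32.9%), and more genes had at least 1 count (21179 to 22021 in *il11a*OE, 20088 to 20713 in control). The first principal component of log2(CPM + 1) held 61.8% of the variance and separated the groups, and the second held 11.1% and separated the letters. Levels are given as CPM, the counts of a gene over the counts of its library in units of 1e6, on TMM-scaled library sizes, a scaling that assumes most genes do not change. The scaling matters here: the median log2 fold change of all genes was 0.04 with TMM and 0.56 with plain library totals. All fold changes below are therefore relative to the bulk of genes. The labels call the tissue hearts, and the defining cardiomyocyte genes *myl7*, *cmlc1*, *tnnt2a* and *actc1a* were abundant in every library, with means of 3409.8 CPM or more in each group, whereas the liver genes *fabp10a*, *apoa1b* and *serpina1* averaged at most 1.17 CPM in either group.

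Prolonged *il11a* induction went with a broad change of the heart transcriptome. Of 18689 genes tested, 5235 (28%) differed between *il11a*OE and control hearts (edgeR's quasi-likelihood test with the letter as covariate, adjusted p under 0.05). Of these, 2826 were higher in *il11a*OE, which is 15.1% of the genes tested, and 2409 were lower, which is 12.9%. The directions differed in size. Past a fold of 4, 1352 genes were higher (7.23%) and 293 lower (1.57%), and past 16-fold 322 were higher and 59 lower. In 88.2% of the called genes the *il11a*OE and control libraries did not overlap in CPM, against 30.8% of all genes tested, the calls having been made on these same libraries. The higher genes were 54.0% of the calls with TMM and 86.6% with plain library totals, which called 6890 higher and 1064 lower. Of the 128 genes named by rule, 6 lost their call with plain library totals, namely *MMP15*, *tgfbr2b*, *epdl1*, *masp1*, *sptb* and *sar1ab*. The medians of 9 gene lists turned from below to above 0 with plain library totals, namely ERK cascade, smooth muscle, calcium handling, cardiac transcription factors, stress cardiomyocyte, erythroid, liver, female liver and proteasome. At most 3 counts in every control library were found in 64 genes tested, all called higher. At most 3 counts in every *il11a*OE library were found in 7 genes tested, all called lower. Such genes pass the expression filter only through the group where they are high, so the direction of these calls was fixed in advance. The same holds for genes with somewhat more counts in 1 group, among them *lepb*, *plxdc1*, *twist2* and *mxc*, which passed only through *il11a*OE. *adamtsl7*, *gria3b*, *nppal*, *PAMR1*, *fga* and *col11a1b* likewise passed only through *il11a*OE, and *cyp2r1* and *cdkn1ca* only through control. Counts of called members in the gene lists below can include such genes.

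**Figure D1:**
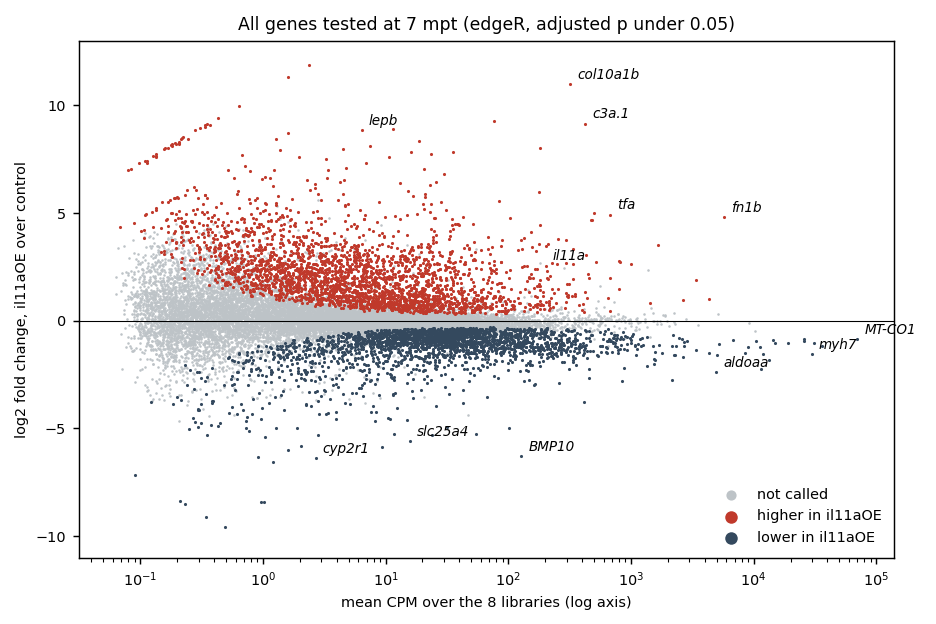
Each point is 1 of the 18689 genes, with its mean CPM over the 8 libraries on a log axis and its log2 fold change (*il11a*OE over control) on the vertical axis. Red points were called higher in *il11a*OE (2826 genes) and dark points lower (2409 genes). The red points reach further from 0 than the dark ones, and the most abundant genes, such as *MT-CO1* and *myh7*, lie below 0.

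The induced gene itself stayed high. *il11a* (ENSDARG00000037859) lies on the forward strand of chromosome 16 at positions 12611362 to 12617155 in GRCz11. It had 340.4, 262, 336 and 433 CPM in *il11a*OE, against 70.7, 90.5, 41 and 41.2 CPM in control, where values of a group follow its replicates 1 to 4. The lowest *il11a*OE library exceeded the highest control library (log2 fold change 2.56 ± 0.29, edgeR adjusted p = 0.000418), where ± gives the standard error of the log2 fold change here and below. Counting did not use strand, and of the genes named below *fn1b* (overlapping *atic*), *asb18*, *fosl1a*, *stab2*, *fxyd3*, *fabp3*, *acta1b* and *sycp1* share exon positions with a gene on the other strand, so that reads of the pair cannot be told apart. Reads of the transgene cDNA and of the endogenous gene are counted together.

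The genes with the largest rise among those with a mean of at least 5 CPM were led by matrix and plasma protein genes. *col10a1b*, a network-forming collagen known from cartilage about to ossify, had 1190.0, 498, 364 and 509 CPM in *il11a*OE, against 0.537, 0.438, 0.208 and 0.142 CPM in control (log2 fold change 10.97 ± 0.42, edgeR adjusted p = 1.56e-05). *c3a.1*, a copy of complement component 3, had 613, 499.5, 1230.1 and 1038 CPM in *il11a*OE, against 0.604, 1.75, 0.921 and 2.43 CPM in control (log2 fold change 9.14 ± 0.51, edgeR adjusted p = 4.26e-05). *PAMR1*, a secreted protease-like protein whose exons overlap *fjx1* on the other strand, had 136, 153, 169 and 147 CPM in *il11a*OE, against 0, 0.0657, 0.505 and 0.736 CPM in control (log2 fold change 9.29 ± 0.83, edgeR adjusted p = 0.000226). The groups do not overlap in these 3 genes, which was a condition for naming genes in this set. *PAMR1* passed the expression filter only through *il11a*OE, so a lower call was not open to it.

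*lepb*, a leptin hormone gene known as a marker of heart regeneration in zebrafish, had 7.13, 9.83, 14.8 and 19.3 CPM in *il11a*OE, against 0.0895, 0, 0 and 0 CPM in control (log2 fold change 8.84 ± 0.89, edgeR adjusted p = 0.000325). Its reads in control hearts were 8 counts in replicate 1, and the other 3 controls had 0. Without that library its fitted log2 fold change was 13.41. *lepb* passed the expression filter only through *il11a*OE, so the direction of its call was fixed in advance. *nppal*, a natriuretic peptide gene, had 14.5, 24.8, 84.3 and 5.78 CPM in *il11a*OE, against 0.291, 0.11, 0.0892 and 0 CPM in control (log2 fold change 7.86 ± 1.21, edgeR adjusted p = 0.00246), the widest spread among *il11a*OE libraries in this set, and limma-voom did not call it (adjusted p = 0.211). *fga*, the fibrinogen alpha chain, had 28.6, 22.1, 78.8 and 57.9 CPM in *il11a*OE, against 0.0224, 0.548, 0 and 0.17 CPM in control (log2 fold change 7.74 ± 1.03, edgeR adjusted p = 0.00126). The other 4 of the 10 were *plxdc1*, a plexin-domain receptor (log2 fold change 8.9), *adamtsl7*, a secreted ADAMTS-like protein (8.34), *gria3b*, a subunit of AMPA-type glutamate receptors (8.11), and *col11a1b*, a chain of the fibrillar collagen XI (7.82). *nppal*, *fga*, *plxdc1*, *adamtsl7*, *gria3b* and *col11a1b* also passed the expression filter only through *il11a*OE, so a lower call was not open to them. With control counts at or near 0, these fitted values depend on the prior count and on single control libraries. The log2 fold change was 11.15 for *plxdc1* without control replicate 1, 9.2 for *adamtsl7* and 9.70 for *fga* without control replicate 2, 9.86 for *gria3b* without control replicate 3 and 9.43 for *col11a1b* without control replicate 4. That of *nppal* was 8.82 without control replicate 1 and 6.71 without *il11a*OE replicate 3.

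The genes with the largest fall included cardiac and muscle genes. *BMP10*, a ligand of the BMP family known from trabecular heart muscle, had 8.0, 20.5, 0.658 and 0.369 CPM in *il11a*OE, against 177, 211, 330.1 and 269 CPM in control (log2 fold change -6.3 ± 1.33, edgeR adjusted p = 0.0101). Both F libraries of *il11a*OE kept more of it than both M libraries. *ckmb*, a muscle creatine kinase that buffers ATP, had 3.19, 1.48, 2.44 and 3.1 CPM in *il11a*OE, against 52.2, 80.9, 125 and 167 CPM in control (log2 fold change -5.27 ± 0.35, edgeR adjusted p = 5.94e-05). *slc25a4*, an ADP/ATP carrier of the inner mitochondrial membrane, had 0.266, 0.148, 2.82 and 0.295 CPM in *il11a*OE, against 35.3, 26.7, 38.4 and 22.6 CPM in control (log2 fold change -5.61 ± 0.92, edgeR adjusted p = 0.00318). With 1 library left out, the log2 fold change of *BMP10* lay between -7.55 (without control replicate 1) and -5.15 (without *il11a*OE replicate 4), and it moved by over 1.5-fold as well without control replicate 2 and *il11a*OE replicates 2 and 3. That of *slc25a4* was -7.02 without *il11a*OE replicate 3.

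*hrh3*, a histamine receptor, had 1.94, 1.98, 3.38 and 0.664 CPM in *il11a*OE, against 76, 37.1, 75 and 58.9 CPM in control (log2 fold change -4.94 ± 0.51, edgeR adjusted p = 0.000339). *cdkn1ca*, an inhibitor of cyclin-dependent kinases, had 0.12, 0.0555, 0.235 and 0.0492 CPM in *il11a*OE, against 2.57, 2.3, 10.9 and 6.37 CPM in control (log2 fold change -5.32 ± 0.55, edgeR adjusted p = 0.000281). Groups that do not overlap were a condition for naming both genes. *cdkn1ca* passed the expression filter only through control, as did *cyp2r1* below, so a higher call was not open to them. The remaining 5 were *cyp2r1*, which encodes a vitamin D hydroxylase and overlaps *CALCB* on the other strand (log2 fold change -6.38), *hhatlb* (-5.33), *asb18*, a subunit of ubiquitin ligases (-5.24), *nme2b.2*, a nucleoside diphosphate kinase with close copies in the genome that make its reads uncertain (-4.98), and *fgl2b*, a fibrinogen-like gene (-4.65). The call of *fgl2b* was lost in 4 of 8 fits that each left out 1 library (adjusted p = 0.0535 to 0.0754), and its log2 fold change was -6.17 without *il11a*OE replicate 1, -5.26 without control replicate 2 and -3.81 without control replicate 4.

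By absolute difference of CPM, a measure that favours long and abundant transcripts, *fn1b* rose most. *fn1b* encodes fibronectin, a matrix glycoprotein laid down by the epicardium in regenerating fish hearts, and had 11755, 10079, 11985 and 10113 CPM in *il11a*OE, against 428, 303, 366 and 475 CPM in control (log2 fold change 4.81 ± 0.20, edgeR adjusted p = 1.56e-05). *anxa2a*, a membrane-binding annexin (1.89 on the log2 scale), *c6*, a complement component whose exons overlap *c7b* (3.53), *nppa*, the atrial natriuretic peptide (1.0), and *krt8*, a keratin of simple epithelia (0.96), followed. The largest falls in CPM were those of *MT-CO1* (-0.85), *myh7* (-1.56), *MT-ATP6* (-1.2), *MT-CYB* (-1.05) and *MT-CO2* (-0.95), the ventricular myosin heavy chain and 4 genes of the mitochondrial genome.

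**Figure D2:**
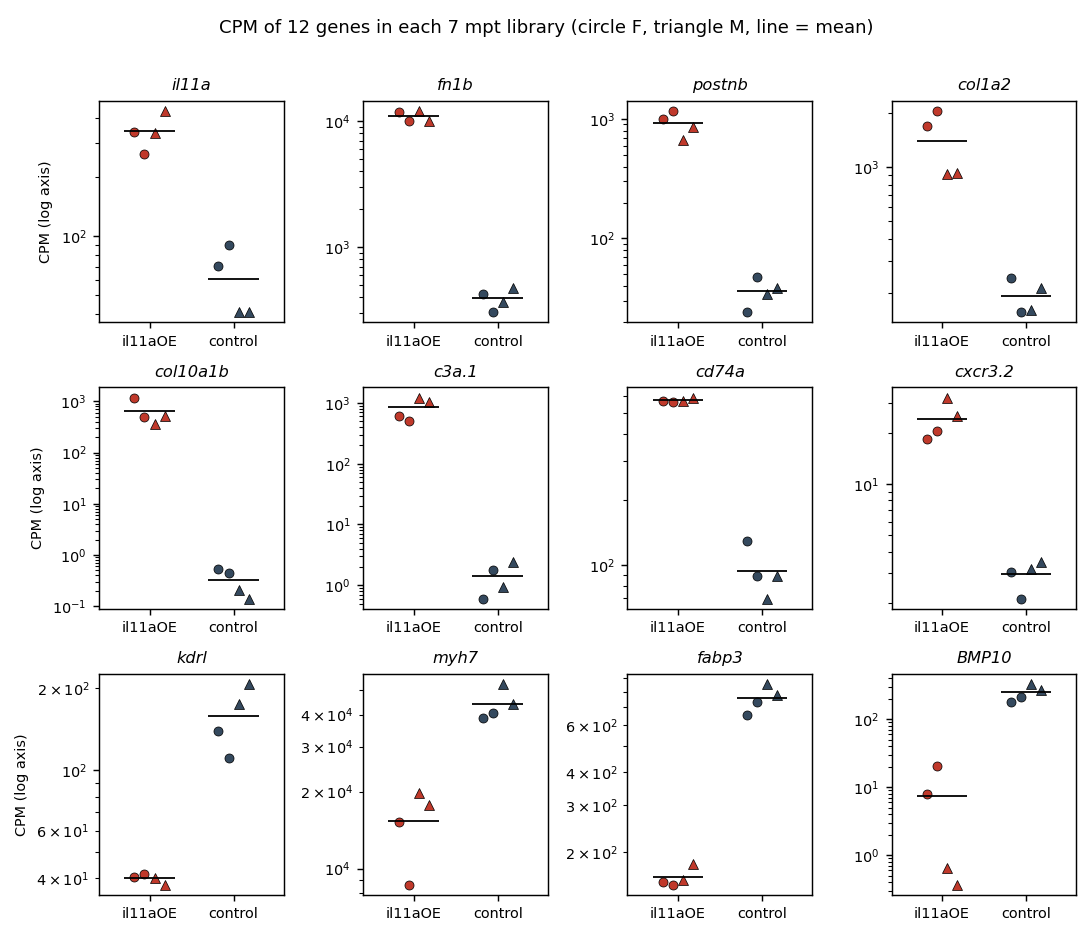
CPM (log axis) of 12 genes in each library, *il11a*OE on the left and control on the right, with circles for F libraries, triangles for M libraries and a line at the group mean. The first 8 genes were higher in *il11a*OE and the last 4 (*kdrl*, *myh7*, *fabp3* and *BMP10*) lower, and in none of the 12 did the groups overlap. The 12 genes were chosen for display, and for *BMP10* groups that do not overlap were a condition for naming it. The lack of overlap is therefore no separate result. Groups did not overlap in 88.2% of the called genes and in 30.8% of all genes tested.

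Genes of immune cells rose across several lineages. Of 57 macrophage and dendritic cell genes tested, 45 were higher in *il11a*OE and 0 lower, with a median log2 fold change of 2.58, against 0.04 over all genes and 15.1% called higher. *c1qa* and *c1qc*, chains of the complement starter C1q that macrophages secrete, had the smallest p. *c1qa* had 52.9, 54.2, 39.4 and 35.3 CPM in *il11a*OE, against 8.84, 9.46, 4.34 and 6.08 CPM in control (log2 fold change 2.69 ± 0.15, edgeR adjusted p = 3.68e-05), and *c1qc* rose by a log2 fold change of 2.62. The macrophage genes used as markers gave, as means with the range over libraries in square brackets, 57.7 [49.3 to 64.8] CPM in *il11a*OE and 8.61 [6.66 to 12.8] CPM in control for *mpeg1.1*, a pore-forming defence protein, 6.21 [3.98 to 7.85] CPM in *il11a*OE and 0.475 [0.0849 to 1.03] CPM in control for *csf1ra*, the receptor for colony-stimulating factor 1, and 129 [51.2 to 211] CPM in *il11a*OE and 40.01 [14.5 to 68] CPM in control for *marco*, a scavenger receptor. More cells of a type and more RNA per cell cannot be told apart in bulk libraries, here and in all gene groups that follow.

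Of 25 granulocyte genes, 17 were higher and 4 lower (median 2.69), and 11 were higher without *il11a*OE replicate 3. The share lower, 16%, was close to the 12.9% over all genes tested. The markers *mpx* (myeloperoxidase, 83.7 [14.2 to 168] CPM in *il11a*OE and 8.36 [0.538 to 30.3] CPM in control) and *lyz* (lysozyme, 17.8 [2.6 to 35] CPM in *il11a*OE and 1.71 [0.0448 to 6.48] CPM in control) were among those higher. *mpx* had 14.2, 20.4, 168 and 132 CPM in *il11a*OE, against 0.582, 1.99, 30.3 and 0.538 CPM in control, so that control replicate 3 overlapped *il11a*OE. Among the *il11a*OE libraries both M were above both F in *mpx* and in *lyz*, while among the controls *mpx* was high in replicate 3 alone. *cebpb*, a transcription factor of myeloid cells and inflammation, had 138, 84.1, 132 and 128 CPM in *il11a*OE, against 21.9, 24.8, 15.9 and 13.4 CPM in control (log2 fold change 2.7 ± 0.24, edgeR adjusted p = 0.000144). *cebpa* rose by 2.36, while *epdl1*, an ependymin-like secreted protein, was the lower member with the smallest p (log2 fold change -1.51). *csf3a*, *arg2* and *gata2a*, named after their values were seen, were the other 3 that fell, and 2 members were lower without control replicate 3 or *il11a*OE replicate 4.

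Lymphocyte genes were low in every library but followed the same course. Of 52 tested, 32 were higher and 0 lower (median 2.88). Members near 0 in control, such as *cd79a*, passed the expression filter only through *il11a*OE, so a lower call was not open to them. How many members this covers was not counted. *cd4-1*, a co-receptor of helper T cells, had 3.73, 2.37, 3.02 and 4.79 CPM in *il11a*OE, against 0.269, 0.175, 0.267 and 0.396 CPM in control (log2 fold change 3.66 ± 0.35, edgeR adjusted p = 0.000211). *eomesa*, a T-box factor of cytotoxic lymphocytes, had 5.65, 4.04, 9.03 and 5.16 CPM in *il11a*OE, against 0.38, 0.526, 0.446 and 0.283 CPM in control (log2 fold change 3.84 ± 0.35, edgeR adjusted p = 0.000176). The T cell kinases *lck* (2.46 [1.57 to 3.15] CPM in *il11a*OE and 0.572 [0.358 to 0.736] CPM in control) and *zap70* (2.66 [2.46 to 3.04] CPM in *il11a*OE and 0.293 [0.0594 to 0.537] CPM in control) and the B cell receptor chain *cd79a* (0.925 [0.444 to 1.32] CPM in *il11a*OE and 0.0779 [0 to 0.224] CPM in control), all markers, were called higher too.

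Antigen presentation genes numbered 20 higher and 2 lower of 39 (median 0.93). *cd74a*, the invariant chain that guides class II molecules, had 573, 567, 569 and 592 CPM in *il11a*OE, against 128, 89.3, 69.9 and 88.9 CPM in control (log2 fold change 2.63 ± 0.18, edgeR adjusted p = 5.51e-05), an almost even level within *il11a*OE. *mhc2dab*, a class II chain, rose by 2.41. *mhc1zca*, a class I gene of the Z lineage, fell by 0.96 on the log2 scale, and *mhc1zda*, named after its value was seen, was the other member that fell. Class I and class II genes come as near-identical copies, and reads that map to several of them were left out of the counts.

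Among 83 chemokine and cytokine genes, 48 were higher and 3 lower (median 2.12). *cxcr3.2*, a chemokine receptor of migrating leukocytes, had 18.5, 20.4, 32.1 and 24.9 CPM in *il11a*OE, against 3.02, 2.13, 3.18 and 3.48 CPM in control (log2 fold change 3.01 ± 0.17, edgeR adjusted p = 3.68e-05). *cxcl18b*, a chemokine that draws neutrophils in zebrafish, had 55.1, 59.4, 57.7 and 67.2 CPM in *il11a*OE, against 10.5, 7.1, 5.44 and 5.86 CPM in control (log2 fold change 3.08 ± 0.21, edgeR adjusted p = 5.51e-05). *ccl20b* went the other way, with 1.9, 1.33, 0.705 and 0.541 CPM in *il11a*OE, against 10.03, 13.2, 10.2 and 8.29 CPM in control (log2 fold change -3.35 ± 0.29, edgeR adjusted p = 0.00014). *csf3a* and *cxcl20*, named after their values were seen, fell as well, and 1 member was lower without control replicate 3.

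Complement and acute phase genes are plasma proteins made mainly by the liver but also by macrophages and stromal cells. Of 34 tested, 21 were higher and 1 lower (median 2.75), and the list took 0.784% to 1.16% of the counts in *il11a*OE, against 0.0358% to 0.0682% in control. *c4b*, which encodes complement component 4, had 741, 830.1, 956 and 1116 CPM in *il11a*OE, against 32.9, 47.3, 29.1 and 31.2 CPM in control (log2 fold change 4.7 ± 0.23, edgeR adjusted p = 2.77e-05). *masp1*, a protease of the lectin pathway, was the lower member (log2 fold change -1.83), at under 1.5 CPM in every library, and its call was lost in 7 of 8 fits that left out 1 library (adjusted p = 0.0717 to 0.115). Interferon-induced genes gave 18 higher and 0 lower of 47 (median 0.94, or 31 higher with plain library totals), led by *irf8*, a factor of the macrophage lineage (log2 fold change 2.62), and *mxc*, an antiviral GTPase (4.77, or 5.36 without control replicate 4).

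Many genes of the extracellular matrix were higher in *il11a*OE. Of 47 collagen chain genes tested, 17 were higher and 2 lower in *il11a*OE (median log2 fold change 1.31). Collagen chains took 0.575% to 1.58% of the counts in *il11a*OE libraries, against 0.112% to 0.189% in control libraries. *col1a2*, a chain of collagen I, the main fibre of scar tissue, had 1699, 2038, 916 and 923 CPM in *il11a*OE, against 243, 156, 162 and 214 CPM in control (log2 fold change 2.76 ± 0.25, edgeR adjusted p = 0.000167). Both F libraries of *il11a*OE were above both M libraries. *col18a1b*, a basement membrane collagen, had 7.84, 6.31, 1.25 and 1.23 CPM in *il11a*OE, against 29.1, 31.2, 32 and 23.6 CPM in control (log2 fold change -3.26 ± 0.50, edgeR adjusted p = 0.0020), and *col23a1b*, named after its value was seen, was the other chain that fell.

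Enzymes that fold and crosslink collagen were higher as well. Of 36 tested, 18 were higher and 0 lower (median 1.14), or 30 higher with plain library totals. *plod2*, a lysyl hydroxylase that prepares collagen for crosslinks, had 54.9, 74.5, 49.2 and 42.3 CPM in *il11a*OE, against 12.9, 7.58, 6.48 and 12.1 CPM in control (log2 fold change 2.48 ± 0.26, edgeR adjusted p = 0.00028). *fkbp14*, a prolyl isomerase of the endoplasmic reticulum, rose by 1.67. Matrix proteases and their inhibitors gave 20 higher and 1 lower of 31 (median 2.2). *timp2b*, an inhibitor of metalloproteinases, had 148, 148, 337 and 159 CPM in *il11a*OE, against 6.22, 4.82, 10.7 and 7.36 CPM in control (log2 fold change 4.76 ± 0.27, edgeR adjusted p = 3.68e-05), and *adam19a*, a membrane metalloprotease, rose by 2.46. *MMP15*, a membrane metalloproteinase, fell by 0.92 on the log2 scale, a call lost in 4 of 8 fits without 1 library (adjusted p = 0.0588 to 0.0828).

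Matricellular, proteoglycan and elastic fibre genes gave 24 higher (35.3%) and 10 lower (14.7%) of 68 (median 0.61), and 5 lower with plain library totals. The shares over all genes tested were 15.1% higher and 12.9% lower, so the share lower was close to that of all genes. *postnb*, periostin, a matrix protein of activated fibroblasts, had 991, 1159, 672 and 865 CPM in *il11a*OE, against 24.1, 47.6, 34.1 and 38.7 CPM in control (log2 fold change 4.65 ± 0.26, edgeR adjusted p = 3.68e-05). *efemp1*, a fibulin of elastic fibres, had 6.28, 7.0, 6.64 and 8.33 CPM in *il11a*OE, against 19.3, 23.9, 21.2 and 33.7 CPM in control (log2 fold change -1.79 ± 0.18, edgeR adjusted p = 0.000268). The list's share of counts, 1.46% to 2.01% in *il11a*OE and 0.136% to 0.196% in control, includes *fn1b*.

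**Figure D3:**
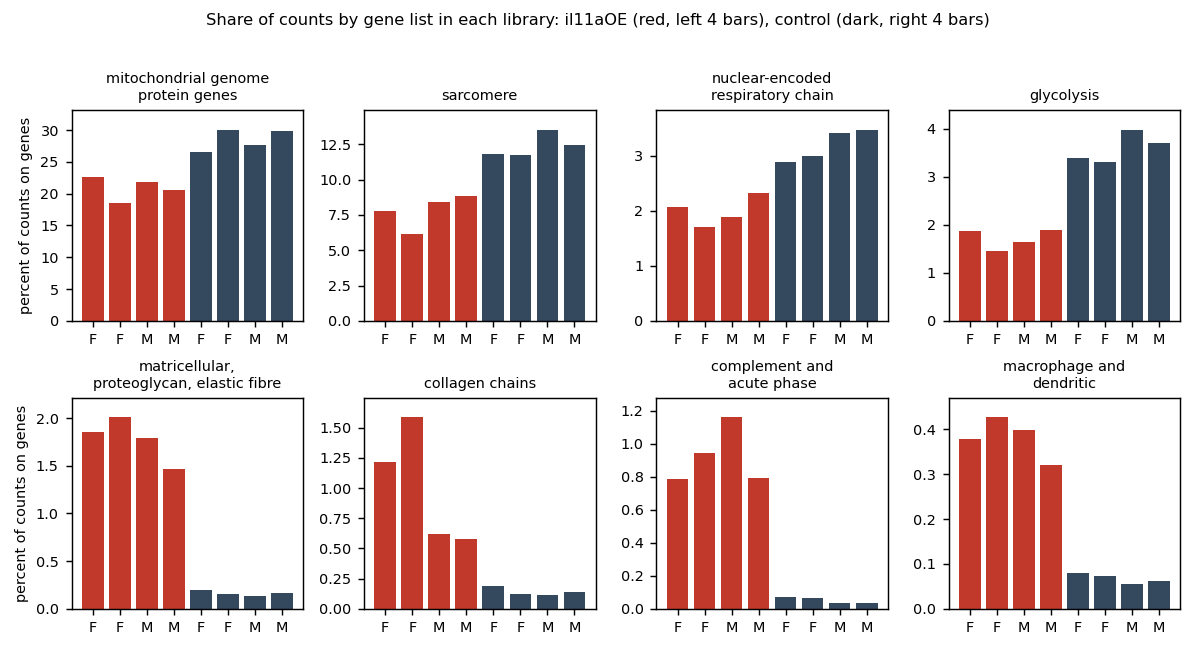
Percent of all counts on genes that fell on each of 8 gene lists, 1 bar per library, *il11a*OE in red on the left and control in dark on the right, F and M marking the letter. The upper 4 lists, of mitochondria, sarcomere, respiratory chain and glycolysis, had lower shares in every *il11a*OE library than in every control library, and the lower 4, of matrix, collagen, complement and macrophages, had higher shares.

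Genes that mark fibroblasts and mural cells rose more often than they fell, 19 and 3 of 36 (median 1.26). *cxcl12a*, a chemokine made by stromal cells, had 159.99, 271, 266 and 247 CPM in *il11a*OE, against 31.6, 12.8, 18.8 and 30.7 CPM in control (log2 fold change 3.33 ± 0.33, edgeR adjusted p = 0.000268). *twist2*, a mesenchymal transcription factor, rose by 4.89 on the log2 scale, with under 0.2 CPM in every control library. *notch3*, a receptor of mural cells, had 12.5, 19.7, 12.9 and 13 CPM in *il11a*OE, against 64.6, 37.6, 50.2 and 54.6 CPM in control (log2 fold change -1.84 ± 0.21, edgeR adjusted p = 0.000418), and *abcc9* and *mfap5*, named after their values were seen, fell with it (5 lower without *il11a*OE replicate 2). Of the fibroblast and epicardial markers, *pdgfra* (55.9 [48.7 to 62.5] CPM in *il11a*OE and 22.6 [15.4 to 36.6] CPM in control) and *dcn*, decorin (485 [324 to 638] CPM in *il11a*OE and 215 [154 to 345] CPM in control), were called higher, while *tcf21* (15.3 [5.61 to 24.8] CPM in *il11a*OE and 13.7 [6.73 to 27.4] CPM in control) and *tbx18* (21.6 [12.6 to 31.6] CPM in *il11a*OE and 13.7 [7.3 to 23.9] CPM in control) were not called.

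Epicardial genes gave 12 higher and 2 lower of 25 (median 0.99). *bnc2*, basonuclin 2, a zinc finger protein of mesothelial and mesenchymal cells, had 55.9, 63.3, 62.8 and 28.8 CPM in *il11a*OE, against 11.9, 8.41, 7.1 and 7.7 CPM in control (log2 fold change 2.59 ± 0.24, edgeR adjusted p = 0.000194). *krt18a.1*, a keratin of simple epithelia that also stands in the skin list, had 724, 695, 731 and 771 CPM in *il11a*OE, against 162, 154, 214 and 224 CPM in control (log2 fold change 1.97 ± 0.13, edgeR adjusted p = 5.22e-05). *hapln1a*, which links hyaluronan to proteoglycans, went the other way with 3.2, 10.9, 7.45 and 1.13 CPM in *il11a*OE, against 42.3, 89.5, 27.2 and 159.5 CPM in control (log2 fold change -3.83 ± 0.86, edgeR adjusted p = 0.0133), with wide spread in both groups and a log2 fold change of -3.01 without control replicate 4, and *nr2f2*, named after its value was seen, also fell. The number lower was 1 without control replicate 1 or 3 or *il11a*OE replicate 3. Smooth muscle and myofibroblast contractile genes gave 3 higher and 4 lower of 34 (median -0.14), or 7 and 3 with plain library totals, 3 and 10 with DESeq2 and 1 and 8 in M libraries alone. In the main fit these shares, 8.82% and 11.8%, were below the 15.1% and 12.9% over all genes tested. *actn1*, alpha-actinin of the cytoskeleton, rose by 1.87 and *mcamb*, an adhesion molecule, fell by 1.12 on the log2 scale. *acta2*, smooth muscle actin, had 230.3, 264, 73.0 and 86.9 CPM in *il11a*OE, against 139.6, 51.5, 192 and 151 CPM in control, and was not called (log2 fold change 0.13, edgeR adjusted p = 0.894). Its log2 fold change was 1.37 in F and -1.10 in M libraries, and the test of a difference between F and M called no gene.

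Cartilage, bone and tendon genes gave 12 higher and 1 lower of 38 (median 1.09), with *col10a1b* counted in this list too. The number higher was 7 without control replicate 2 and also without *il11a*OE replicate 1, 2 or 3. *nkx3-2*, a homeobox factor of cartilage, rose by 3.71, and *alpl*, the alkaline phosphatase of mineralizing bone, fell by 1.55 on the log2 scale.

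Genes of the cytokine's family and of JAK/STAT signaling, a wider set than its own receptor complex, were more often higher than lower. Of 43 IL-6 family and JAK/STAT genes, 15 rose, *il11a* included, and 2 fell (median 0.63), or 25 and 1 with plain library totals. *lifrb*, a receptor chain for leukemia inhibitory factor that pairs with gp130, had 51.2, 63, 87.7 and 64.4 CPM in *il11a*OE, against 3.94, 3.72, 1.81 and 2.86 CPM in control (log2 fold change 4.45 ± 0.30, edgeR adjusted p = 5.51e-05). *ptpn6*, a tyrosine phosphatase of blood cells that dampens JAK signaling, had 34.9, 25.9, 63.6 and 47.2 CPM in *il11a*OE, against 7.14, 7.19, 5.91 and 6.34 CPM in control (log2 fold change 2.63 ± 0.25, edgeR adjusted p = 0.000201). *cntfr*, a receptor for ciliary neurotrophic factor, had 3.41, 6.18, 6.48 and 4.62 CPM in *il11a*OE, against 14.9, 20.8, 17.2 and 11.4 CPM in control (log2 fold change -1.63 ± 0.26, edgeR adjusted p = 0.00218), and *stat4*, named after its value was seen, fell as well.

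The ERK cascade list showed no such lean, with 3 higher (10.3%) and 4 lower (13.8%) of 29 (median -0.18), or 9 and 2 with plain library totals. The shares over all genes tested were 15.1% higher and 12.9% lower. *spred2a*, an inhibitor of ERK signaling, had 8.54, 9.81, 8.86 and 15.7 CPM in *il11a*OE, against 24.6, 18.7, 32 and 25.1 CPM in control (log2 fold change -1.23 ± 0.20, edgeR adjusted p = 0.00221). *fosl1a*, an AP-1 subunit whose transcription follows ERK, had 56.8, 20.6, 32.9 and 30.7 CPM in *il11a*OE, against 9.73, 9.49, 1.31 and 3.37 CPM in control (log2 fold change 2.87 ± 0.51, edgeR adjusted p = 0.00426). Of 12 AP-1 factor genes, 6 were higher and 0 lower (median 1.5), among them *fosl2* (2.49) and *junbb* (1.77).

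The TGF-beta and BMP list gave 13 higher (25%) and 6 lower (11.5%) of 52, against 15.1% and 12.9% over all genes tested. The list's median was 0.12, close to that of all genes, and plain library totals gave 24 and 1. Its receptors parted: *tgfbr2a*, a type 2 receptor, had 63, 41, 56.4 and 47.2 CPM in *il11a*OE, against 11.5, 8.19, 10.5 and 9.06 CPM in control (log2 fold change 2.4 ± 0.18, edgeR adjusted p = 7.82e-05), and its paralog *tgfbr2b* had 58, 51.3, 49.5 and 52 CPM in *il11a*OE, against 83.5, 80.1, 126 and 89.9 CPM in control (log2 fold change -0.83 ± 0.15, edgeR adjusted p = 0.0042). The fall of *tgfbr2b* depends on the scaling, with a log2 fold change of -0.31 and no call with plain library totals. *nog2*, a noggin that binds and blocks BMP ligands, had 82.5, 29.8, 58.4 and 64.8 CPM in *il11a*OE, against 1.12, 0.372, 0.476 and 0.198 CPM in control (log2 fold change 6.82 ± 0.59, edgeR adjusted p = 0.000182).

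Growth factor and Wnt genes gave 19 higher and 9 lower of 77 (median 0.34), and 5 were lower without *il11a*OE replicate 3. The shares were 24.7% higher and 11.7% lower, against 15.1% and 12.9% over all genes tested. With plain library totals 29 were higher and 4 lower. *lepb*, given above, was in this list. *igfbp3*, which binds insulin-like growth factors, had 27.2, 44.6, 20.6 and 12.7 CPM in *il11a*OE, against 125, 131, 99 and 80.6 CPM in control (log2 fold change -2.13 ± 0.23, edgeR adjusted p = 0.000339).

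Heart muscle genes were lower far more often than higher. Of 62 sarcomere genes tested, 30 were lower and 2 higher in *il11a*OE (median log2 fold change -0.76), against 12.9% called lower over all genes, and 17 were lower with plain library totals. The list took 6.15% to 8.83% of the counts in *il11a*OE and 11.7% to 13.5% in control. *ldb3b*, a Z-disc protein, had 555, 445, 553 and 702 CPM in *il11a*OE, against 3291, 3200.2, 4763 and 3837 CPM in control (log2 fold change -2.74 ± 0.16, edgeR adjusted p = 3.68e-05). Its paralog *ldb3a* fell by 1.45 on the log2 scale. *xirp2a*, a protein of intercalated discs, rose instead (1.14), a call lost without control replicate 3 (adjusted p = 0.0533). The other higher member was a gene at about 1 CPM that the reference table names *MYH6* (ENSDARG00000114031), chosen after its value was seen, and 1 of this pair was higher without control replicate 1 or 4 or *il11a*OE replicate 2 or 3, and 0 without control replicate 3. Another gene of that name (ENSDARG00000079564) was lower, at 228 [196 to 314] CPM in *il11a*OE and 594 [360 to 827] CPM in control (log2 fold change -1.38, edgeR adjusted p = 0.00703). It was taken as an atrial cardiomyocyte marker by this shared name alone, so that it is the atrial gene is not certain. The atrial marker *myl4* averaged 0.719 CPM in *il11a*OE and 2.24 CPM in control and was not called (edgeR adjusted p = 0.103).

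The general cardiomyocyte markers fell together. *myl7*, the regulatory myosin light chain, was at 6095 [4676 to 6808] CPM in *il11a*OE and 17681 [13301 to 22029] CPM in control, *cmlc1*, the essential light chain, at 6885 [4601 to 9281] CPM in *il11a*OE and 15795 [12386 to 18958] CPM in control, and *tnnt2a*, cardiac troponin T, at 3409.8 [2354 to 4477] CPM in *il11a*OE and 7034 [6655 to 7496] CPM in control. *actc1a*, cardiac actin, had 4741, 2863, 4356 and 5578 CPM in *il11a*OE, against 10498, 10281, 14749 and 15194 CPM in control (log2 fold change -1.52 ± 0.18, edgeR adjusted p = 0.00052). *myh7*, under which the ventricular myosin heavy chain *vmhc* is listed, had 15144, 8642, 19779.8 and 17656 CPM in *il11a*OE, against 38722, 40529, 52881 and 44166 CPM in control (log2 fold change -1.56 ± 0.20, edgeR adjusted p = 0.000751). In both genes *il11a*OE replicate 2 was the lowest library.

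Calcium handling, channel and coupling genes gave 5 higher and 13 lower of 38 (median -0.40, which turns to 0.11 with plain library totals). The shares were 13.2% higher and 34.2% lower, against 15.1% and 12.9% over all genes tested. *pln1*, phospholamban, the brake on the calcium pump of the sarcoplasmic reticulum, had 1315, 906, 1442 and 1461 CPM in *il11a*OE, against 4952, 3709.5, 4074 and 3582 CPM in control (log2 fold change -1.68 ± 0.19, edgeR adjusted p = 0.000425). *fxyd3*, of a family that regulates the sodium pump, fell by 1.21 on the log2 scale. *kcnh6a*, the potassium channel of cardiac repolarization in zebrafish, had 523, 274, 397 and 638 CPM in *il11a*OE, against 154, 112, 146 and 153 CPM in control (log2 fold change 1.69 ± 0.24, edgeR adjusted p = 0.00114). The other 4 that rose, named after their values were seen, were *kcnj5*, *rrad*, *hcn2b* and *kcnq1.1*, and the number higher was 3 without control replicate 3 or without *il11a*OE replicate 1.

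Cardiac transcription factor genes gave 10 higher (21.3%) and 9 lower (19.1%) of 47 (median -0.062). The shares over all genes tested were 15.1% higher and 12.9% lower. *mef2cb*, which drives muscle genes in the developing heart, had 85.9, 68.1, 116 and 127 CPM in *il11a*OE, against 35.8, 33.9, 41.1 and 41.7 CPM in control (log2 fold change 1.35 ± 0.13, edgeR adjusted p = 0.000231). *pbx1a*, a homeodomain cofactor, rose by 2.35, and *prox1a*, a factor of muscle and lymphatic vessels, fell by 1.27 on the log2 scale. Of 26 stress and embryonic cardiomyocyte genes, 5 were higher (19.2%) and 7 lower (26.9%), with a median of -0.0075. The natriuretic peptide gene *nppa*, a stress marker, had 6949, 5336, 4793 and 5631 CPM in *il11a*OE, against 2776, 4517, 2146 and 2233 CPM in control (log2 fold change 1.0 ± 0.20, edgeR adjusted p = 0.00622), and *nppal*, *ankrd1a*, *nppc* and *tnnt1* rose with it, of which *ankrd1a*, *nppc* and *tnnt1* were named after their values were seen. The number higher was 2 to 4 with 1 library left out, and 2 without control replicate 3. With plain library totals 11 were higher and 3 lower.

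Genes of mitochondrial respiration were lower almost throughout. All 13 protein-coding genes of the mitochondrial genome were lower in *il11a*OE (median log2 fold change -0.95), and 11 of them with plain library totals. Genes of the mitochondrial chromosome took 21.2 ± 1.82% of the counts in *il11a*OE and 29 ± 1.74% in control (SD, n = 4 each, two-sided exact permutation test, p = 0.0286, the smallest p that 4 against 4 libraries can give). *MT-ATP6*, a subunit of ATP synthase whose exon overlaps *mt-atp8* and *MT-CO3*, had 25486, 17271, 24032 and 20456 CPM in *il11a*OE, against 46683, 51136, 46615 and 55395 CPM in control (log2 fold change -1.2 ± 0.17, edgeR adjusted p = 0.00104). *MT-ND2*, a subunit of complex I, fell by 1.04 on the log2 scale.

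Of 98 nuclear genes of the respiratory chain, 87 were lower and 2 higher (median -1.13), and none of them changed past 4-fold. *ndufa5*, a subunit of complex I, had 83.7, 66.8, 93.1 and 93.3 CPM in *il11a*OE, against 197, 191, 231 and 233 CPM in control (log2 fold change -1.34 ± 0.11, edgeR adjusted p = 0.000115). *ndufs3*, of the same complex, fell by 1.44 on the log2 scale. *cox7a2b*, a subunit of cytochrome oxidase, had 20.03, 20.3, 20.8 and 28.5 CPM in *il11a*OE, against 9.98, 7.71, 9.69 and 9.93 CPM in control (log2 fold change 1.26 ± 0.15, edgeR adjusted p = 0.00048), and *cox5ba*, named after its value was seen, was the other member that rose.

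The TCA cycle and fatty acid oxidation list fell as widely, with 52 lower and 2 higher of 63 (median -1.39). *fabp3*, the fatty acid carrier of heart muscle, had 155, 151, 157 and 181 CPM in *il11a*OE, against 652, 732, 856 and 774 CPM in control (log2 fold change -2.22 ± 0.12, edgeR adjusted p = 3.65e-05). *hadhaa*, a subunit of the trifunctional enzyme of fatty acid oxidation that shares exon sequence with *hadhb* on the other strand, had 173, 122, 141 and 124 CPM in *il11a*OE, against 514, 584, 637 and 579 CPM in control (log2 fold change -2.05 ± 0.16, edgeR adjusted p = 7.82e-05). *bdh1*, an enzyme of ketone metabolism, rose (0.84), a call lost without control replicate 4 and without *il11a*OE replicate 2 or 3 (adjusted p = 0.0533 to 0.0679), and *pdha1b*, named after its value was seen, was the other that rose, with 0 or 1 member higher without control replicate 1, 3 or 4 or any one *il11a*OE replicate.

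Glycolysis genes gave 17 lower and 5 higher of 38 (median -0.61), and 11 in each direction with plain library totals. The main shares were 44.7% lower and 13.2% higher, against 12.9% and 15.1% over all genes tested. *aldoaa*, the muscle aldolase, had 1939.7, 1039, 1461 and 1840.5 CPM in *il11a*OE, against 7647, 7782, 9146 and 8554 CPM in control (log2 fold change -2.4 ± 0.21, edgeR adjusted p = 0.000135). *pgam2*, the muscle phosphoglycerate mutase, fell by 1.55 on the log2 scale, and its exons overlap *rpl17*. *hk2*, the hexokinase that phosphorylates glucose in muscle and growing cells, had 15.1, 14.2, 32.5 and 28.2 CPM in *il11a*OE, against 3.71, 2.23, 5.85 and 9.79 CPM in control (log2 fold change 2.13 ± 0.23, edgeR adjusted p = 0.000308). The other 4 that rose, named after their values were seen, were *slc16a3a*, *slc2a1b*, *gapdhs* and *slc2a12*, and the number higher was 3 without control replicate 3.

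Vessel genes moved in both directions with more of them lower. Of 62 endothelial, endocardial and lymphatic genes, 27 were lower (43.5%) and 11 higher (17.7%, median -0.68), and 14 and 17 with plain library totals. The shares over all genes tested were 12.9% lower and 15.1% higher. Plain library totals called 1064 lower and 6890 higher over all genes. The median of the list was -0.32 in F and -0.90 in M libraries. F libraries alone gave 3 lower and 4 higher, and M libraries alone 25 and 6. Over all genes these fits called 451 lower in F and 1663 in M. *kdrl*, the VEGF receptor of zebrafish endothelium, had 40.5, 41.6, 40.1 and 37.9 CPM in *il11a*OE, against 139.6, 111, 176 and 208 CPM in control (log2 fold change -1.96 ± 0.17, edgeR adjusted p = 0.000141). The markers *cdh5*, the cadherin of endothelial junctions (105 [99.1 to 113] CPM in *il11a*OE and 179.9 [151 to 207] CPM in control), *pecam1a* (10.2 [7.47 to 14.7] CPM in *il11a*OE and 39.99 [26.7 to 55.6] CPM in control) and *tie1* (43.6 [37.8 to 48] CPM in *il11a*OE and 69.2 [58.3 to 80.2] CPM in control) were lower too. *stab2*, a scavenger receptor of venous and lymphatic endothelium that takes up hyaluronan, had 21.1, 18.2, 16.6 and 26.6 CPM in *il11a*OE, against 1.5, 1.4, 1.6 and 2.43 CPM in control (log2 fold change 3.59 ± 0.23, edgeR adjusted p = 4.59e-05).

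Cell division genes were low in every library and more often higher than lower in *il11a*OE. Of 82 genes of mitosis and cytokinesis, 46 were higher and 2 lower (median 1.54). The number higher depended on single libraries: it was 22 without *il11a*OE replicate 3, 27 without *il11a*OE replicate 2, 29 without control replicate 3 and 30 without control replicate 4. *cenpe*, a kinetochore motor, had 3.18, 3.98, 8.47 and 7.11 CPM in *il11a*OE, against 0.94, 0.789, 2.5 and 1.75 CPM in control (log2 fold change 1.96 ± 0.23, edgeR adjusted p = 0.000418). *cdc25b*, a phosphatase that triggers mitosis, rose by 1.97. *cdca7b*, which fell (-1.77), and *kif23*, named after its value was seen, were the members lower, and 1 was without *il11a*OE replicate 1, 2 or 4.

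G1 and DNA replication genes gave 8 higher and 2 lower of 83 (median 0.34). These shares, 9.64% and 2.41%, were below the 15.1% and 12.9% over all genes tested. Without control replicate 1 or 3, or without *il11a*OE replicate 2 or 3, the number higher was 3, without *il11a*OE replicate 4 it was 4, with DESeq2 it was 17, and with plain library totals it was 40. *mcm3*, of the replicative helicase, had 3.87, 8.57, 6.56 and 6.2 CPM in *il11a*OE, against 1.61, 2.06, 2.2 and 2.58 CPM in control (log2 fold change 1.59 ± 0.28, edgeR adjusted p = 0.00325). *cdkn1ca*, given above, was the called member with the smallest p, and 1 of the members lower was lost without control replicate 2, 3 or 4 or without *il11a*OE replicate 2, 3 or 4. A higher call was not open to *cdkn1ca*, which passed the expression filter only through control.

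Genes of protein synthesis and turnover stayed close to the bulk. Of 77 ribosomal protein genes, 2 were called higher, *rpl22l1* (0.71) and *rps27l* (0.84), both variants of standard subunits, while 1 stayed higher without control replicate 3 or 4 or *il11a*OE replicate 1 or 4, and the call of *rps27l* was lost in 6 of 8 fits that left out 1 library (adjusted p = 0.0617 to 0.155). With plain library totals 73 of them were higher. Proteasome genes gave 5 higher (9.09%) and 6 lower (10.9%) of 55 (median -0.094), or 33 and 1 with plain library totals. The main shares were below the 15.1% and 12.9% over all genes tested. Of the higher ones *psmb9a*, a subunit of the immunoproteasome, which cuts peptides for class I molecules, had 17.8, 18, 26.2 and 16.3 CPM in *il11a*OE, against 5.28, 5.59, 2.91 and 4.1 CPM in control (log2 fold change 2.15 ± 0.25, edgeR adjusted p = 0.000418), and *psmb13a*, *psmb8a*, *psmb12* and *psma2a* were named after their values were seen. *psme4a*, a proteasome activator, had 12.2, 7.46, 16.9 and 14 CPM in *il11a*OE, against 19.9, 37.9, 95 and 89.5 CPM in control (log2 fold change -2.07 ± 0.30, edgeR adjusted p = 0.00136). The number of proteasome genes lower was 2 without control replicate 2, 3 or 4 and without *il11a*OE replicate 2, 3 or 4, and the number higher 3 without control replicate 1 or 4 or without *il11a*OE replicate 1.

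Endoplasmic reticulum genes of folding and secretion gave 31 higher and 2 lower of 83 (median 0.39), and 66 and 0 with plain library totals. *creb3l1*, a membrane-bound factor that drives genes for collagen secretion, had 6.6, 6.7, 7.33 and 4.18 CPM in *il11a*OE, against 0.425, 0.241, 0.535 and 0.566 CPM in control (log2 fold change 3.85 ± 0.35, edgeR adjusted p = 0.000164). *ero1a*, which forms disulfide bonds, rose by 1.6. *sar1ab*, of the vesicle coat that leaves the reticulum, fell by 0.88 on the log2 scale, and *srp14*, named after its value was seen, also fell.

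**Figure D4:**
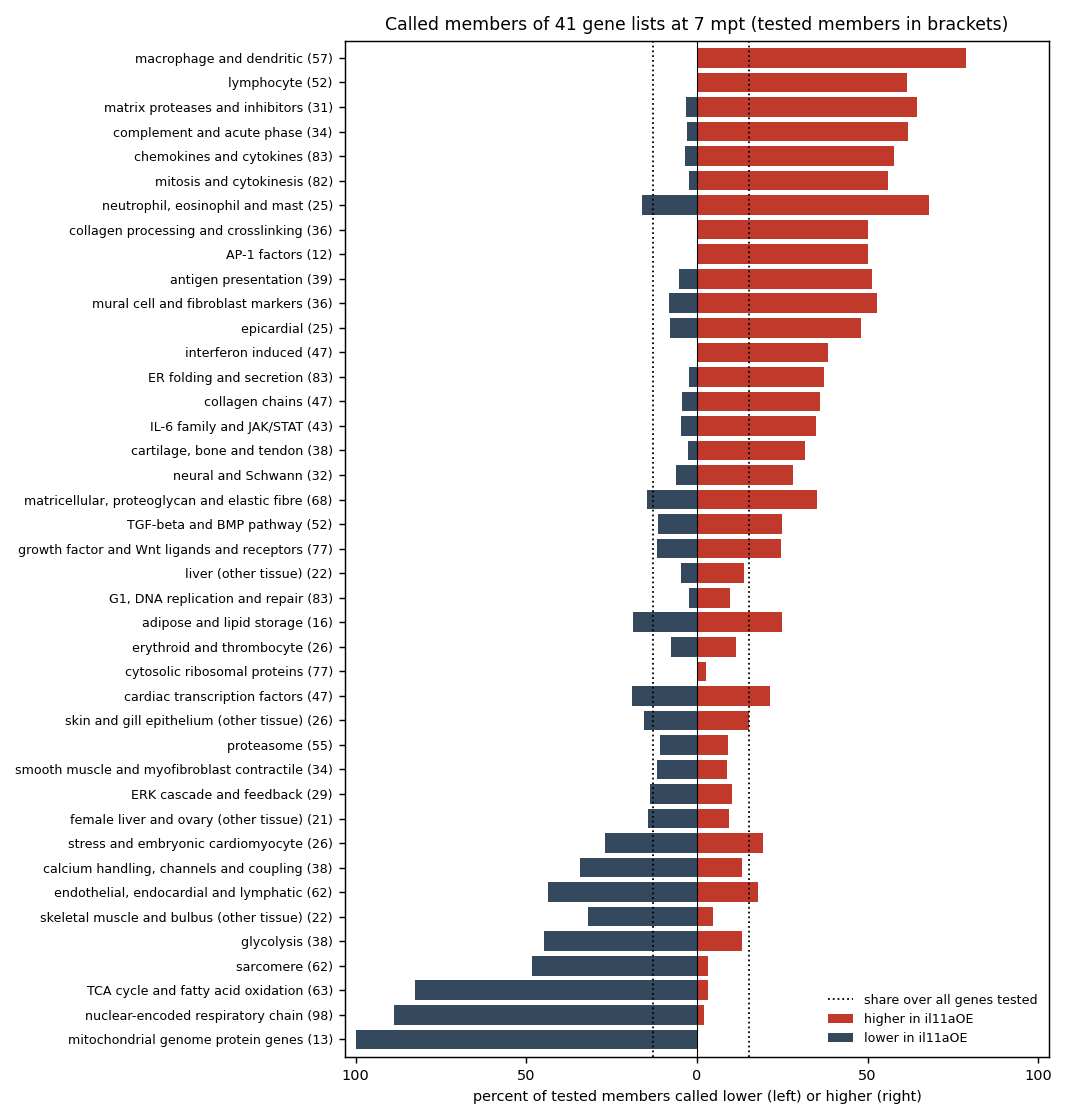
For each of 41 gene lists, the percent of tested members called higher (red, to the right) and lower (dark, to the left) in *il11a*OE (edgeR, adjusted p under 0.05), ordered by the difference, with the number tested in brackets. Dotted lines mark the shares over all genes tested, 15.1% higher and 12.9% lower. Most lists near the top are of immune cells and matrix, with mitosis among them, and mitochondrial, metabolic and sarcomere lists stand at the bottom.

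Genes of other tissues were checked because dissected hearts can carry blood, nerve, fat or neighbouring tissue. Over all genes tested, 15.1% were higher and 12.9% lower. The red cell and thrombocyte list gave 11.5% and 7.69%, and the liver list 13.6% and 4.55%, so both stayed below these shares. Of 26 red cell and thrombocyte genes, 3 were higher and 2 lower (median -0.12), with *fn1b* and *thbs1b* (named after its value was seen) among those higher. The adult globin gene *hbaa1* was not called (1737 [639 to 3309.9] CPM in *il11a*OE and 1318 [667 to 2233] CPM in control), *hbaa2* was called higher and was named after its value was seen, and *sptb*, spectrin of the red cell skeleton, fell by 0.97 on the log2 scale together with *prdx2*, also named after its value was seen. *tfa*, transferrin, which stands in the liver list with *fga*, had 827, 1039.7, 2481 and 856 CPM in *il11a*OE, against 111, 15.7, 37.8 and 15.1 CPM in control (log2 fold change 4.93 ± 0.86, edgeR adjusted p = 0.0041), with a log2 fold change of 5.95 without control replicate 1 and 4.34 without *il11a*OE replicate 3. The liver list gave 3 higher (*fga*, *tfa* and *cp*, the last named after its value was seen) and 1 lower (*ahsg1*, -1.9) of 22 (median -0.28), while the liver-defining genes *fabp10a* (0.71 [0.0185 to 1.73] CPM in *il11a*OE and 1.17 [0.476 to 1.87] CPM in control) and *apoa1b* (0.402 [0.0555 to 0.983] CPM in *il11a*OE and 0.984 [0.0594 to 2.01] CPM in control) were not called. The part of liver tissue in these values was not tested beyond these markers.

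Of 21 female liver and ovary genes, 3 were lower, *vtg4* (-3.09), *vtg6* and *vtg7* (*vtg6* and *vtg7* named after their values were seen), all yolk precursors, and 2 higher, *sycp1*, a meiotic gene (2.24), and *zp3b*, with a median of -0.46. Only 1 was lower without control replicate 2. The shares of this list were 9.52% higher and 14.3% lower, against 15.1% and 12.9% over all genes tested. *vtg1* averaged 0.826 [0.047 to 1.71] CPM in *il11a*OE and 13.9 [0 to 51.5] CPM in control and was not called, and control replicate 2 held most of its control counts. Skin and gill genes gave 4 higher, 3 of them keratins shared with the epicardial list (*krt18a.1*, *krt18b* at 1.97, and *krt8*), and 4 lower, among them *ppl* (-1.43), of 26 (median -0.87). The defining skin genes *krt5* (1.59 [0.664 to 2.55] CPM in *il11a*OE and 39.5 [1.34 to 149] CPM in control) and *epcam* (0.0861 [0 to 0.141] CPM in *il11a*OE and 2.19 [0 to 8.38] CPM in control) were not called, and neither was *krt4* (259 [166 to 324] CPM in *il11a*OE and 183 [134 to 232] CPM in control). The control means of *krt5* and *epcam* rested on control replicate 4, with 149 CPM of *krt5* and 8.38 CPM of *epcam*. The number of skin genes lower was 2 without *il11a*OE replicate 4. The skin and gill shares, 15.4% higher and 15.4% lower, were close to those over all genes tested.

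Skeletal muscle and bulbus genes gave 7 lower (31.8%), *ckmb* and *acta1b* (-1.16) among them, and 1 higher (4.55%), *mylka*, a myosin light chain kinase (0.73), of 22 (median -0.65). The call of *mylka* was lost without control replicate 2 or 3 (adjusted p = 0.0564 and 0.0603). Adipose genes gave 4 higher (25%) and 3 lower (18.8%) of 16 (median 0.081), with *fasn*, fatty acid synthase, at -1.62. Only *fasn* was called lower without control replicate 2, 3 or 4 or without *il11a*OE replicate 2, 3 or 4.

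Neural and Schwann cell genes gave 9 higher (28.1%) and 2 lower (6.25%) of 32 (median 1.41). *mbpb*, a myelin protein, had 19, 20.8, 28.5 and 21.5 CPM in *il11a*OE, against 6.83, 4.14, 7.61 and 3.45 CPM in control (log2 fold change 2.02 ± 0.28, edgeR adjusted p = 0.000915). *nrn1b*, neuritin, a small membrane-anchored growth protein, was near absent in *il11a*OE, with 0, 0.0185, 0 and 0 CPM in *il11a*OE, against 1.48, 1.31, 1.55 and 3.79 CPM in control. It had at most 2 counts in each *il11a*OE library. Set at a floor of 3 counts in a library, it was 55.1-fold lower there (edgeR adjusted p = 0.000425). *nrn1b* passed the expression filter only through the control group, so the direction of this call was fixed in advance. *hand2*, named after its value was seen, was the other that fell, and 1 was lower without control replicate 3.

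The effect had the same sign in F and in M libraries in all 5235 called genes, against 74.3% of all genes tested, as the calls rest on both letters. Fitted in 1 model of the same 8 libraries, the log2 fold change of *il11a* was 1.9 in F and 3.23 in M, that of *BMP10* -3.77 and -9.16, that of *col1a2* 3.23 and 2.29, and that of *fn1b* 4.9 and 4.72. A test of whether the effect differs between F and M called 0 of 20915 genes (0%, edgeR, smallest adjusted p = 0.188), with 1264 genes at an unadjusted p under 0.05 (6.04%), and 193 with DESeq2. There were 2 libraries for each letter and group.

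**Figure D5:**
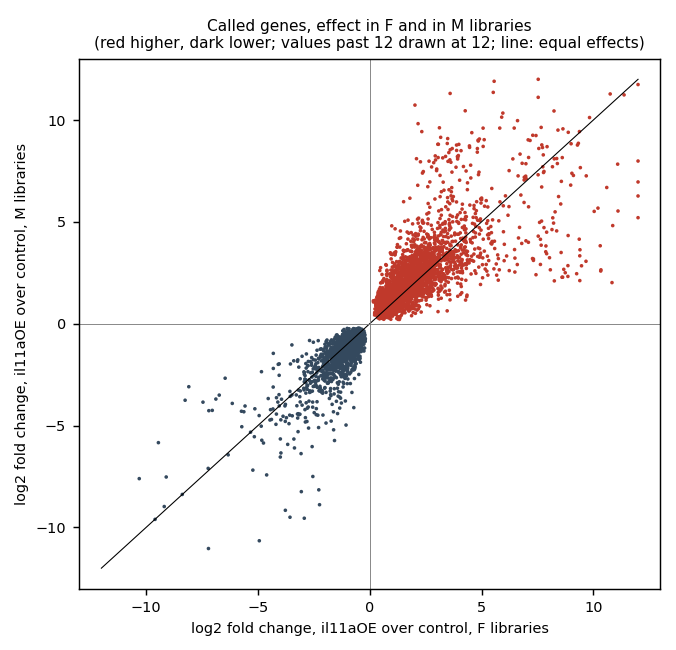
Log2 fold change (*il11a*OE over control) in F libraries on the horizontal axis and in M libraries on the vertical axis for the 5235 called genes, red for higher and dark for lower, with values past 12 drawn at 12 and a line of equal effects. All points lie in the quadrants where both effects have the same sign.

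The effect at 7 mpt was set against that at 7 days after the same treatment (7 dpt), measured in 3 *il11a*OE and 3 control libraries that were counted as read pairs. The 7 dpt libraries carry no letter. The paper's text speaks of ventricles at 7 dpt and of hearts at 7 mpt, while the labels say hearts at both. Fish at 7 mpt had also aged months longer since tamoxifen. Such differences cannot be told apart from the length of induction. Of 21317 genes tested over all 14 libraries, 630 (2.96%) had a more positive and 815 (3.82%) a more negative effect at 7 mpt (edgeR adjusted p under 0.05). The more positive genes were the more numerous with DESeq2 (1480 and 1323), with DESeq2 size factors and without any 1 of the 4 control libraries of 7 mpt (868 and 795 without control replicate 1). *postnb* had a log2 fold change of 4.65 at 7 mpt and -0.032 at 7 dpt (difference 4.67, standard error 0.36, edgeR adjusted p = 4.55e-05). *plxdc2b*, a plexin-domain receptor, had 3.09 and -0.32 (adjusted p = 1.63e-05), and *sik1*, a salt-inducible kinase, 0.71 and -0.97 (adjusted p = 4.55e-05).

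In the other direction, *prc1b*, which bundles the microtubules of the dividing cell, had 0.98 at 7 mpt and 5.98 at 7 dpt (difference -5.01, standard error 0.32, edgeR adjusted p = 1.63e-05). The cell cycle kinase *cdk1* had 1.27 and 5.48 (adjusted p = 1.63e-05), and *anln*, anillin of the contractile ring, 0.57, not called at 7 mpt, and 5.64 (adjusted p = 4.15e-05). At 7 mpt alone the call of *prc1b* was lost in 4 of 8 fits without 1 library (adjusted p = 0.0552 to 0.0639).

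By list, the differences between the time points were frequent in lists of cell division, matrix and metabolism, among others. The effect was more negative at 7 mpt in 59 of 82 mitosis genes and 37 of 84 G1 and replication genes, against 3.82% of all genes. At 7 dpt the median log2 fold changes of these lists were 4.32 and 1.46, where 20.2% of all genes were higher and 17.1% lower. The effect at 7 mpt was more negative as well in 20 of 98 respiratory chain and 16 of 64 TCA cycle and fatty acid oxidation genes. It was more positive in 11 of 51 collagen chains, 11 of 34 matrix protease genes and 11 of 73 matricellular genes, against 2.96% of all genes. The same held for 6 of 26 epicardial and 6 of 36 mural cell and fibroblast genes, with 1 more negative in each list. In antigen presentation 6 of 42 genes had a more positive and 2 a more negative effect. Of 60 macrophage genes, 7 had a more positive and 0 a more negative effect, and for *il11a* itself no difference was called (2.56 at 7 mpt, 2.92 at 7 dpt, adjusted p = 0.578).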

How the data were processed

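Uninjured hearts were profiled as polyA RNA libraries, 4 *il11a*OE and 4 control at 7 mpt, with 3 and 3 libraries at 7 dpt used for 1 contrast. The deposited values are counts of reads per gene that the authors made with HISAT2 alignments to GRCz11 and featureCounts (version 2.0.0, Ensembl 104 per the file headers), without strand and without reads that map or belong to several places. Each mate was counted at 7 mpt and each pair at 7 dpt, so levels were not compared between the times. Genes were tested on the counts with edgeR 4.0.16 (R 4.3.3) after filterByExpr and TMM scaling, in a quasi-likelihood fit with group and letter and Benjamini-Hochberg adjustment over all genes tested. The threshold was an adjusted p under 0.05. The study's methods imply no letter, and that fit was an alternative. Symbols from the reference tables and the study's supplementary gene lists were matched to 29266 of 32520 gene IDs. 3 of the marker genes intended (*tbx5a*, *hbba1* and *mylpfa*) were not matched and are not used here.

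Named genes were *il11a*, the 10 largest rises and falls with a mean of at least 5 CPM in the higher group, groups that do not overlap and a fold over 4, the 5 largest CPM differences each way, the 2 members of each of 41 lists with the smallest p and 1 called in the minority direction, and 3 genes each way for the contrast with 7 dpt. The comparison, lists and markers were chosen with earlier results of these data known. The fold of *nrn1b*, near 0 in every *il11a*OE library, was taken against a floor of 3 counts per library. Each mate was counted, and 99.1% to 99.4% of the genes detected in a library had an even count. The floor is therefore fewer than 3 read pairs, and the fold is no lower bound. Other fitted folds of genes near 0 in a group depend on edgeR's prior count and are no bounds. The pools are separate by the methods, and no label ties a pool of one group to a pool of the other. No 2 libraries agreed within sampling noise. Counts were simulated with the same dispersion for every gene, no letter effect and few changed genes, balanced in direction and not near 0 counts. These settings differ from the data, so the recovery is not the power or error of the tests on the hearts. On simulated counts the main test recovered 73 of 100 genes changed 2-fold and 99 of 100 changed 4-fold, with 6 false calls. The F against M test recovered 4 and 56, and the contrast with 7 dpt 11 and 95. Alternatives were DESeq2 1.42.0, limma-voom (limma 3.58.1), DESeq2 size factors, 2 other filters, no robust dispersion, halved counts, no letter, the replicate block, each letter alone, each library left out and, chosen after seeing the data, library totals without TMM.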

Additional observations from a re-analysis of the deposited data

Results flagged for a closer look

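Among 346 groups of 4 libraries examined, 25 held 1 library that stood apart from the other 3 by Dixon's test at the 95% level, and chance flags about 1 in 20 groups.

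*il11a*OE replicate 1 stood above the other *il11a*OE libraries in *fgl2b* (2.38 CPM), *junbb* (85.2 CPM), *twist2* (5.09 CPM) and *sar1ab* (9.78 CPM), and below them in the share of counts on proteasome genes (0.239%). *il11a*OE replicate 2 stood above the others in *notch3* (19.7 CPM) and in *nrn1b* (0.0185 CPM, against 0 in the other 3), and below them in *MT-ND2* (7499.8 CPM). *il11a*OE replicate 3 stood above the others in *slc25a4* (2.82 CPM), *timp2b* (337 CPM), *tfa* (2481 CPM) and *psmb9a* (26.2 CPM), and below them in the share on TGF-beta and BMP genes (0.107%). *il11a*OE replicate 4 was high in *cox7a2b* (28.5 CPM) and in ribosomal protein genes (6.65% of counts).

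Control replicate 1 stood above the other controls in *lepb* (0.0895 CPM, against 0 in the other 3), *cyp2r1* (10.003 CPM) and *nme2b.2* (428 CPM), in the shares of counts on matrix proteases (0.0508%) and on growth factor and Wnt genes (0.0931%), and in genes detected (20713). Control replicate 2 was low in *cox7a2b* (7.71 CPM) and high in the share on female liver and ovary genes (0.00851%). Control replicate 3 was high in *gria3b* (0.178 CPM) and control replicate 4 in *nrn1b* (3.79 CPM).

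The effect of *il11a* induction differed between 7 mpt and 7 dpt, by the edgeR test of the difference itself, in 630 genes with a more positive and 815 with a more negative effect at 7 mpt. The difference on the log2 scale was 4.67 for *postnb*, 3.40 for *plxdc2b* and 1.67 for *sik1*, and -5.01 for *prc1b*, -4.22 for *cdk1* and -5.09 for *anln*. The time points also differ in how mates were counted, in the letter, in the age reached since tamoxifen and perhaps in the tissue taken. These cannot be told apart from the length of induction.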

How the results depend on the processing

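With TMM, 2826 genes were higher and 2409 lower, 1352 and 293 of them past 4-fold. DESeq2, limma-voom, DESeq2 size factors, halved counts, no letter and no robust dispersion kept these 4 counts within 1.5 times. A minimum of 10 counts in every library gave 809 higher past 4-fold, as it leaves out genes near 0 in control. Library totals without TMM gave 6890 higher and 1064 lower, 2128 and 167 past 4-fold. F libraries alone gave 909 higher and 451 lower, 610 and 114 past 4-fold, and M libraries alone 1808 higher, with 2 libraries per group. Leaving out 1 library gave 2110 to 2666 higher, 1857 to 2220 lower, and 1062 to 1392 and 244 to 322 past 4-fold. The mitochondrial difference, -7.85 percentage points, ranged from -8.53 to -7.04.

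The replicate block gave 2417 higher and 2067 lower, 1192 and 257 past 4-fold, and called *masp1*, *rps27l* and *prc1b* no longer (adjusted p = 0.112, 0.0949 and 0.0606, edgeR). The numbers are not shown to pair the pools: deviations of same-numbered libraries from their group means correlated at 0.00592, 0.0939, 0.137 and 0.130 across genes, and not every library correlated best with its own number.

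The F against M test called 0 genes with edgeR (1264 at an unadjusted p under 0.05), 193 with DESeq2, 15 with no filter beyond 1 count, and 0 to 2 with 1 library left out (2 without control replicate 1). The contrast with 7 dpt gave 1480 more positive and 1323 more negative genes with DESeq2 and 484 more negative with no letter, and 483 to 868 and 601 to 1124 with 1 library left out. The cause of these differences was not tested.

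Of 128 named genes, 83 kept their call in every setting, 112 in all but the fits of 1 letter, and 120 with each library left out. The counts of some lists turned with plain totals, as in endothelial (17 higher and 14 lower, against 11 and 27 with TMM) and stress cardiomyocyte genes (11 and 3, against 5 and 7). ERK cascade (9 and 2, against 3 and 4), smooth muscle (7 and 3, against 3 and 4) and proteasome genes (33 and 1, against 5 and 6) turned too. All genes moved the same way, to 6890 higher and 1064 lower, so these counts alone show no turn relative to all genes. DESeq2 moved 9 list counts by over 1.5 times, among them ribosomal protein genes higher (5, against 2), erythroid higher (6, against 3) and female liver lower (6, against 3).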
